A study of Homo sapiens with 8 samples.

Results

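Doxorubicin breaks DNA and activates the tumour suppressor p53, and 408 dispersed places in the genome carried a p53 peak only in the list from doxorubicin-treated cells. They were chosen by the deposited peak positions themselves. The 4 lists were merged into 19877 regions wherever peaks overlapped or adjoined, and 3074 of these held a doxorubicin peak. At least 1 other list shared 2374 of these, which left 700 listed with doxorubicin alone. Of the 700, 78 on chromosomes M and Y and 214 in dense runs (5 or more successive doxorubicin peaks with gaps of at most 20 kb) were set aside. The remaining 408 regions, called members here, each consisted of 1 doxorubicin peak and made up 13.2% of that list. Their share of all 2642 dispersed doxorubicin regions was 15.4%, and 22.8% of all 3074 doxorubicin regions had no peak of another list. Absence from the other lists was the criterion of choice and is not a result.

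The study mapped p53 by ChIP-seq, sequencing of DNA precipitated with an antibody, in U2OS, an osteosarcoma line whose own p53 is wild type per the labels' protocols. Cells received 0.6 µg/ml doxorubicin, 10 µM Nutlin-3 or the solvent DMSO at 0.1%, each for 24 h, or were left untreated as a 24 h control. The untreated cells are labelled as the control of doxorubicin, and the DMSO cells as that of Nutlin-3. Each condition had 1 ChIP library, made with the antibody DO-1 against p53, and 1 input library, with no replicates. The lists held 3087 peaks with doxorubicin, 18159 with Nutlin-3, 2793 with DMSO and 496 in untreated cells. The number of reads behind each is unknown. Lists of such different length leave different room for a peak to be found again, so depth and binding cannot be told apart here. Peak positions hold no expression values, and the cell line was not checked against marker genes.

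As background, p53 binds DNA as a tetramer at a response element made of a pair of short half-sites. It activates genes for cell cycle arrest, apoptosis and DNA repair. Doxorubicin, a topoisomerase II poison, turns on damage kinases that modify p53 and loosen its hold by the ubiquitin ligase MDM2. Nutlin-3 occupies the p53 pocket of MDM2 and so stabilises p53 without damaging DNA, which makes the pair of treatments a comparison of p53 activation with and without DNA damage.

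Many members were not remote from the sites of the other conditions but lay beside them. Of the 408, 161 lay within 1000 bp of a peak of another list without touching it, and 247 lay farther away than that. The neighbour was nearly always a Nutlin-3 peak: 155 members (38.0%, 95% interval 33.3 to 42.9) had one within 1000 bp, 45 (11.0%, 8.16 to 14.5) had a DMSO peak and 4 (0.980%, 0.268 to 2.49) had an untreated peak. By combination, 112 of the 161 had Nutlin-3 alone nearby, 43 had Nutlin-3 and DMSO, 2 had DMSO alone and 4 had an untreated peak alone. A Nutlin-3 partner was not particular to the members. The Nutlin-3 list was the longest, with 18159 peaks. Of the 2234 dispersed doxorubicin regions shared with another list, 97.3% (96.6 to 97.9) held a Nutlin-3 peak. Intervals are exact binomial ones, cover counting error only and treat regions as independent.

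These neighbours were very close. Deposited positions sit on a grid of 20 bp, and 67 members were exactly 1 step, 20 bp, from a Nutlin-3 peak, with a further 33 at 40 bp and 12 at 60 bp. Within 100 bp there were 123 members, or 30.1% of all. Gaps inside 1 list are a different measure. The smallest was 180 bp with doxorubicin, 60 bp with Nutlin-3, 120 bp with DMSO and 180 bp in untreated cells.

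Near its boundary, the criterion of overlap cut through a continuous series of distances. Set against the nearest peak of any other list, 1158 of the 2645 dispersed doxorubicin peaks shared 40 bp, 433 shared 20 bp, and 142 adjoined it with no base in common. Just outside, 71 members were separated by 20 bp, 34 by 40 bp, 11 by 60 bp, 28 by 80 to 200 bp and 17 by 220 to 1000 bp. The numbers fell step by step across the boundary, with no break between the last shared and the first unshared peaks. The 247 members more than 1000 bp from every other list lie outside this series. These counts describe the choice of members and were not tested.

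**Figure D1:**
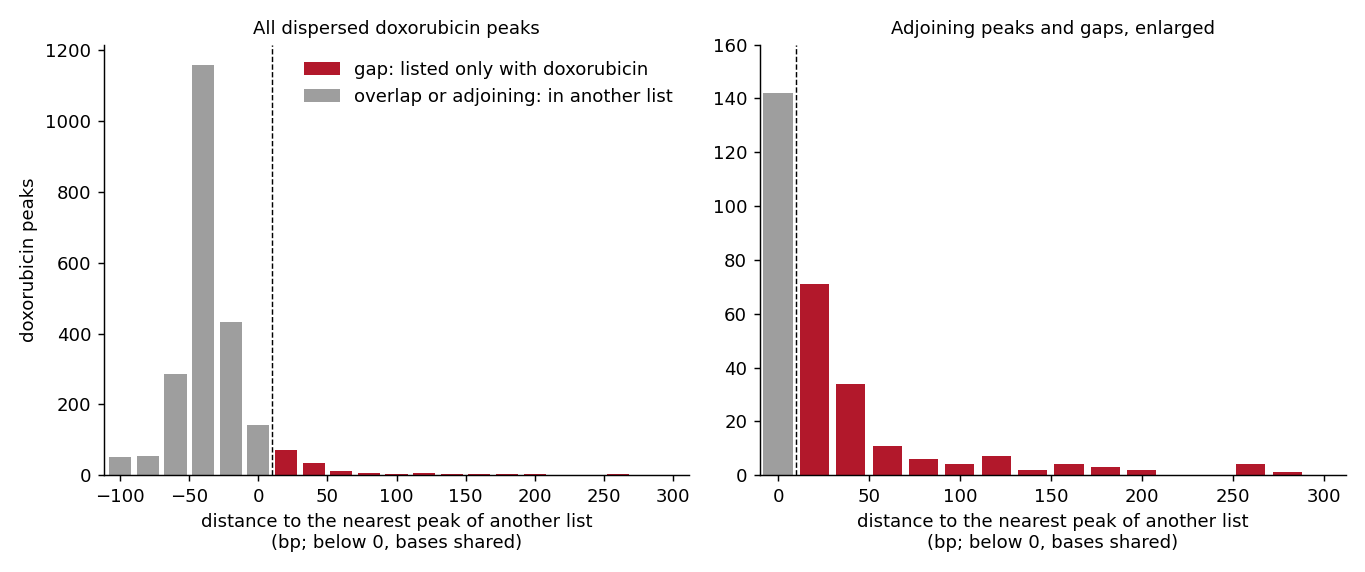
Number of dispersed doxorubicin peaks by their distance, in bp, to the nearest peak of the Nutlin-3, DMSO or untreated list (left, all peaks; right, enlarged from the adjoining peaks on); red bars are members, grey bars peaks that overlap or adjoin another list, and values below 0 are bases shared. Bars decline from 142 adjoining peaks through 71 members at 20 bp and 34 at 40 bp. Gaps over 300 bp are not drawn, so the 247 members more than 1000 bp from every other list do not appear.

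The peaks on both sides of these small gaps were mostly narrow, as were peaks in general. Of the 155 members beside a Nutlin-3 peak, 82 were 40 bp wide, the smallest width in any list. The Nutlin-3 neighbour was 40 bp wide in 90 cases and 60 bp in 30, and both peaks were at most 60 bp wide in 97 of the 155 (62.6%). Midpoints were a median of 100 bp apart (60 to 1050). For the 2141 doxorubicin peaks that overlapped or adjoined a Nutlin-3 peak in regions without an untreated peak, the median was 20 bp. This difference restates the choice, since members may not touch a Nutlin-3 peak and the 2141 peaks must. The width of 40 bp was nearly as common elsewhere, at 52.9% of these 155 members, 48.3% of all members and 46.2% of all dispersed doxorubicin peaks.

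The neighbours lay on either side of the member. Within 200 bp, a Nutlin-3 peak stood on the lower-coordinate side alone for 65 members, on the higher-coordinate side alone for 57 and on both sides for 17. The neighbouring Nutlin-3 peak was listed with Nutlin-3 alone in 112 of 155 cases and was shared with DMSO, but not doxorubicin, in 32. In 2 cases it belonged to a region of doxorubicin and Nutlin-3, and in 9 to one of doxorubicin, Nutlin-3 and DMSO, so that the member stood next to a site listed with doxorubicin already.

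Examples show the arrangement in single places. The member on chromosome 1 from 28551511 to 28551551 was 20 bp from both a Nutlin-3 and a DMSO peak and 11649 kb from an untreated one. The member from 110255631 to 110255671 on the same chromosome was 20 bp from a Nutlin-3 peak and 60 bp from a DMSO peak. Those from 24328431 to 24328491, 32732471 to 32732611 and 47670471 to 47670511 were 20 bp from a Nutlin-3 peak, with the nearest DMSO peak 264, 741 and 620 kb away. These 5 are the first in chromosome order among the 67 at 20 bp. Positions are in build hg18, as deposited.

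The regions listed only with DMSO also had many close neighbours, and those listed only in untreated cells had fewer. Built in the same way, outside the dense runs of their own list, they numbered 575 and 261. A Nutlin-3 peak lay within 1000 bp of 38.0% of the members, 44.7% (40.6 to 48.9) of the DMSO-only regions and 25.7% (20.5 to 31.4) of the untreated-only regions. Within 40 bp the shares were 24.5% (20.4 to 29.0), 19.3% (16.2 to 22.8) and 2.68% (1.08 to 5.45) in the same order. The member and DMSO-only intervals overlapped at both distances, and the untreated-only share was the lowest. With 1 library each, no test of these differences was possible.

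**Figure D2:**
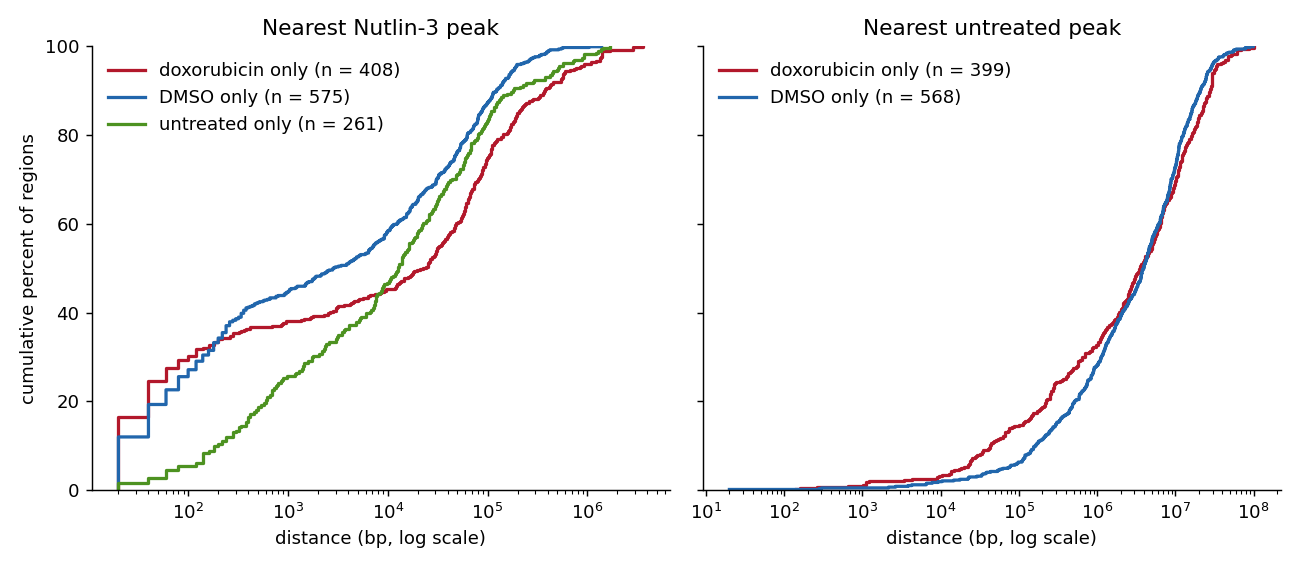
Cumulative percent of regions against distance to the nearest Nutlin-3 peak (left) and untreated peak (right), on log axes in bp, for regions listed only with doxorubicin (red), only with DMSO (blue) or only in untreated cells (green); regions on a chromosome with no untreated peak are left out on the right. The red curve rises steeply up to about 100 bp, rises more slowly to 10 kb, where it reaches 45.3%, and steeply again beyond.

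Few members stood between the close neighbours and the far ones. A total of 30 members had their nearest Nutlin-3 peak between 1 and 10 kb away, against 155 within 1000 bp and 223 beyond 10 kb. The median distance over all 408 was 23.5 kb (9.5 to 34.3). Distances were longer to the shorter lists, with medians of 325 kb (257 to 394) to a DMSO peak and 3574 kb (2615 to 4997) to an untreated peak, the last over the 399 members off chromosome 13, which had no untreated peak.

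The 247 members more than 1000 bp from every other list had fewer Nutlin-3 sites around them at a larger scale. The counts that follow are not free of the choice. By definition the 247 lack a Nutlin-3 peak within 1000 bp, and the regions shared with Nutlin-3 have one. Nutlin-3 sites also stood near each other, and 40.8% of Nutlin-3-only regions had another such region within 20 kb. The part of this in the counts was not tested. Counting Nutlin-3 peaks 1 to 100 kb away, 100 of the 247 had none (40.5%, 34.3 to 46.9). The share was 42 of 161 (26.1%, 19.5 to 33.6) for members beside another list. It was 214 of 776 (27.6%, 24.5 to 30.9) for dispersed doxorubicin regions shared with Nutlin-3 alone and 361 of 1390 (26.0%, 23.7 to 28.4) for those shared with DMSO and Nutlin-3. The mean number of Nutlin-3 peaks in that range was 1.40 for the first group, 2.63 for the members beside another list and 2.34 for both kinds of shared regions. The members beside another list were thus close to the shared regions in this count, and the 247 lay below both. The places described next are the flanks of long peak-free intervals, the surroundings of untreated peaks and the chromosome ends. Ends of chromosomes 13, 14, 15, 21 and 22 are not counted among them. Among the 166 of the 247 that lay in none of these places, 55 had none (33.1%, 26.0 to 40.8). That interval overlaps those of the shared regions and of the 247.

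A larger share of the same 247 members lay near long stretches without peaks. Each chromosome's longest interval without a peak of any list was located. This place is not free of the choice, since the interval lacks peaks of every list. By definition the 247 lack peaks of the other lists within 1000 bp, and the shared regions have one. The part of this in the shares was not tested. On chromosomes 1, 9 and 16 it spanned 20.3, 27.5 and 9.84 Mb, while on chromosome 12 it was 1.58 Mb, so it does not locate the centromere everywhere. Of the 247 members, 47 (19.0%, 14.3 to 24.5) lay at most 2 Mb from this interval, against 4 of 161 members beside another list (2.48%, 0.681 to 6.24). The shares were 21 of 776 (2.71%, 1.68 to 4.11) for regions shared with Nutlin-3 alone, 32 of 1390 (2.30%, 1.58 to 3.23) for those shared with DMSO and Nutlin-3, and 12 of 575 (2.09%, 1.08 to 3.62) for DMSO-only regions. Untreated-only regions had a higher share than these, 19 of 261 (7.28%, 4.44 to 11.1), whose interval overlapped the 12.5% (9.45 to 16.1) of all 408 members. The share of all members depended on the Nutlin-3 list. It was 5.93% with that list left out of the choice of members, with the intervals kept. It was 4.47% against its widest peaks, as many as the doxorubicin list holds, with the intervals located anew without the other Nutlin-3 peaks. For all 2642 dispersed doxorubicin regions the share was 4.58% (3.81 to 5.45). Seen from the other side, members made up 42.1% of the 121 dispersed doxorubicin regions at most 2 Mb from the interval and 14.2% of the 2521 elsewhere.

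The 51 members in these flanks were spread over 16 chromosomes. Chromosome 21 held 7, chromosomes 1 and 20 held 6 each, and chromosomes 10 and 16 held 5 each. A total of 8 members were themselves a bound of the interval, since the interval ends where a peak begins. The member nearest to the middle of its interval was on chromosome 22 from 14585191 to 14585411 (220 bp wide), with its closest Nutlin-3 peak 1082 kb, its closest DMSO peak 2712 kb and its closest untreated peak 5741 kb away. The next were a pair on chromosome 20, from 28204871 to 28204911 and from 28205411 to 28205451, both 40 bp wide and about 20 kb from a DMSO peak.

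Untreated peaks also stood near a larger share of members than of shared sites, although each of the classes compared here lacked an untreated peak by its definition. An untreated peak stood within 100 kb of 58 members (14.2%, 11.0 to 18.0). It did so for 29 of 776 regions shared with Nutlin-3 alone (3.74%, 2.52 to 5.32), 43 of 1390 shared with DMSO and Nutlin-3 (3.09%, 2.25 to 4.14) and 36 of 575 DMSO-only regions (6.26%, 4.42 to 8.56). Among the 58, 26 were also in the flanks of the peak-free interval. With those flanks left out, the shares were 32 of 357 members (8.96%, 6.21 to 12.4), 26 of 755 (3.44%, 2.26 to 5.01), 41 of 1358 (3.02%, 2.18 to 4.07) and 35 of 563 (6.22%, 4.37 to 8.54) in the same order. The member interval then overlapped that of the DMSO-only regions and lay above those of both shared classes. Mappability, repeats and copy number in U2OS were not measured, and their part in these places was not tested.

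**Figure D3:**
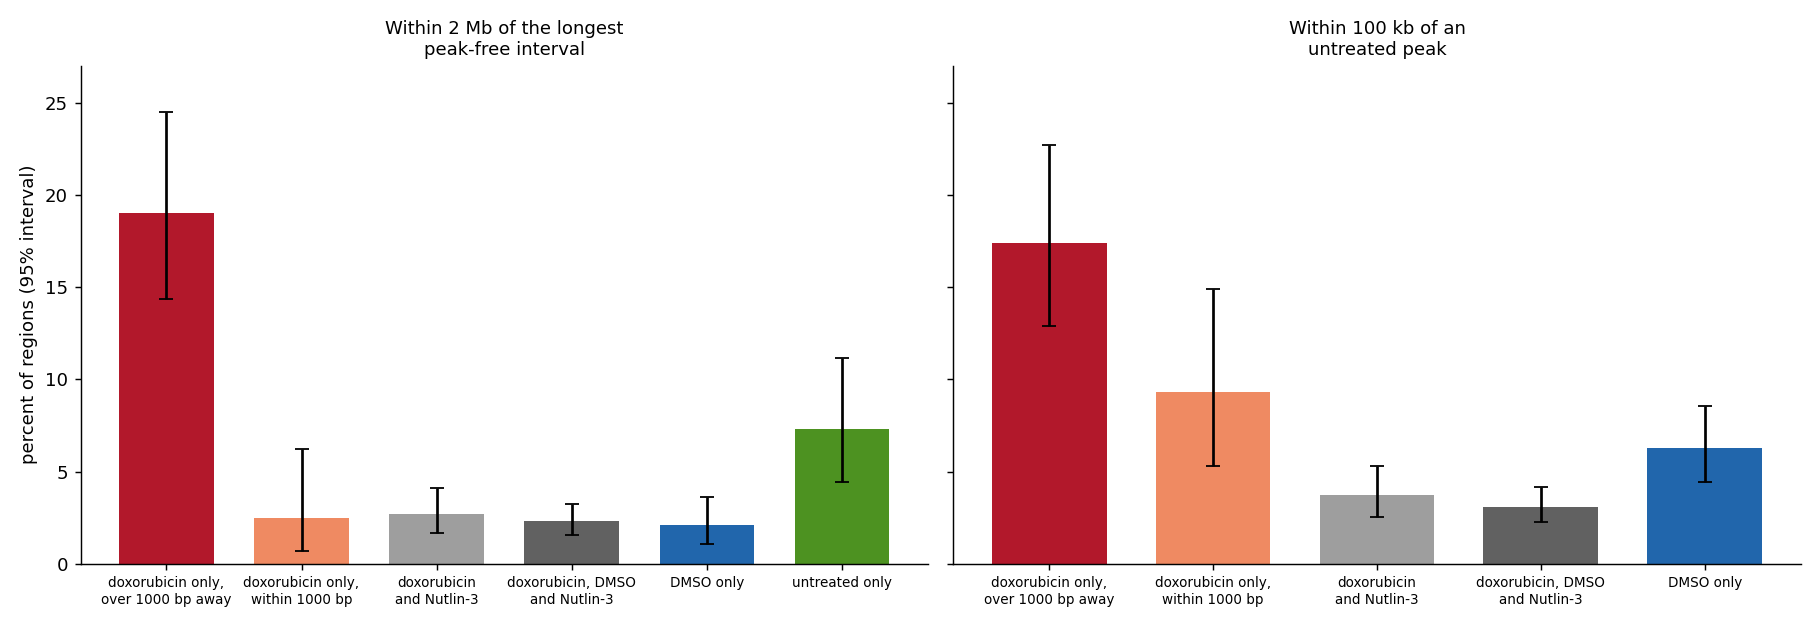
Percent of regions, with exact 95% binomial intervals, in the flanks (up to 2 Mb) of the longest stretch without peaks (left) and within 100 kb of an untreated peak (right), for members over 1000 bp from every other list (dark red), members within 1000 bp of another list (orange), both shared classes (grey), DMSO-only regions (blue) and, on the left, untreated-only regions (green). The first group is the highest in both panels, at 19.0% and 17.4%.

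The ends of the chromosomes showed a smaller number of members. Leaving out chromosomes 13, 14, 15, 21 and 22, 23 of 348 members (6.61%, 4.24 to 9.75) were within 1 Mb of the first or last listed peak. This was so for 7 of 682 regions shared with Nutlin-3 alone (1.03%, 0.414 to 2.10), 15 of 1214 shared with DMSO and Nutlin-3 (1.24%, 0.693 to 2.03) and 10 of 503 DMSO-only regions (1.99%, 0.957 to 3.63). It was so for 7 of 225 untreated-only regions (3.11%, 1.26 to 6.30), whose interval overlapped that of the members. Over all chromosomes 8 members were themselves such a first or last peak, which puts them there by construction. The ends of chromosomes 13, 14, 15, 21 and 22 are not counted as a place in what follows. Of all 408 members, 305 (74.8%, 70.2 to 78.9) lay in none of these places, and 139 of the 305 were beside another list. The remaining members in none of these places were 166 of the 247, 40.7% of all members, on 23 chromosomes. Another doxorubicin peak stood within 1000 bp of 8 of them. Of these 166, 74 were 40 bp wide, 13 were at least 200 bp wide, and 55 had no Nutlin-3 peak within 100 kb.

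Set against all dispersed doxorubicin peaks, width did not mark the members as a whole. Their peaks had a median of 60 bp and a mean of 78.8 ± 73.1 bp (SD, n = 408 peaks of 1 library). Doxorubicin peaks shared with Nutlin-3 alone averaged 80.6 ± 60.6 bp (n = 776), and those shared with DMSO and Nutlin-3 averaged 72.1 ± 56.3 bp (n = 1393). Peaks of 40 bp made up 48.3% (43.3 to 53.3) of the members, 35.2% (31.8 to 38.7) of peaks shared with Nutlin-3 alone and 51.6% (49.0 to 54.3) of those shared with both. By this share, members were no narrower than the sites shared with DMSO and Nutlin-3 but narrower than those shared with Nutlin-3 alone. By width, members made up 16.1% of dispersed doxorubicin peaks of 40 bp, 14.7% of 60 bp, 11.2% of 80 to 100 bp, 21.7% (16.2 to 28.1) of 120 to 140 bp, 12.0% of 160 to 180 bp and 15.6% (10.2 to 22.3) of at least 200 bp. The share over all widths, 15.4%, lay below the interval of the 120 to 140 bp class and inside that of the widest class.

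Wide members belonged almost entirely to those more than 1000 bp from every other list. Of the 24 members of at least 200 bp, 22 were among the 247 (8.91%, 5.67 to 13.2) and 2 among the 161 beside another list (1.24%, 0.151 to 4.42). A wider peak has more room to touch a neighbour and so to be left out of the members, and the part of this in the counts was not tested. Of the 24, 8 lay in the flanks of the peak-free interval.

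The widest member, 720 bp, lay on chromosome 2 from 161844491 to 161845211. It stood in the only window of 4 members with gaps of at most 20 kb, which ran from 161843351 to 161847431 over 4.08 kb. The other members in it were 440, 140 and 340 bp wide, and 3 of the 10 widest members were in this window. The window held 0 Nutlin-3, 0 DMSO and 0 untreated peaks, and the nearest of these lay 107, 442 and 29022 kb away. It was far from the peak-free interval of the chromosome. With 1 more doxorubicin peak it would have counted as a dense run.

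A second wide group lay on chromosome 16 near untreated peaks. The members from 33773611 to 33774131 (520 bp) and from 33806211 to 33806671 (460 bp) were the next widest, with untreated peaks 1.02 and 24.6 kb away and Nutlin-3 peaks 96.0 and 63.4 kb away. Members from 33776011 to 33776211 (200 bp) and from 33809131 to 33809291 (160 bp) stood beside them. These 4 lay in the flanks of the peak-free interval of chromosome 16.

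The other members among the 10 widest stood singly or in pairs of doxorubicin peaks. The member on chromosome 20 from 28262011 to 28262371 (360 bp) was 13.6 kb from an untreated peak and 1356 kb from a Nutlin-3 peak. The one on chromosome 4 from 80492571 to 80492891 (320 bp) was 660 bp from an untreated peak and 552 kb from a Nutlin-3 peak. Chromosome 1 held one from 91625391 to 91625711 (320 bp), at 142.5 kb from a Nutlin-3 peak. On chromosome 13 the member from 26931731 to 26932031 (300 bp) was 124 kb from one. The one on chromosome 12 from 49060471 to 49060771 (300 bp) was 31.0 kb from one. These last 3 were the only wide isolated members among the 10 with no untreated peak within 1 Mb and no other doxorubicin peak within 20 kb.

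Most members had no other member within 20 kb, in part because the rule set aside dense runs with the same gap. Another member stood within 20 kb of 10.0% (7.31 to 13.4) of the members, and of 40.7% with dense runs kept. Counted within its own class, the share was 6.96% for regions shared with Nutlin-3 alone and 7.48% for those shared with DMSO and Nutlin-3. It was 4.17% for DMSO-only, 12.6% for untreated-only and 40.8% for Nutlin-3-only regions. These classes differ in size, and the part of this was not tested. The 408 formed 385 windows with gaps of at most 20 kb: 367 held 1 member, 14 held 2, 3 held 3 and 1 held 4. The windows of 3 members were on chromosome 4 (190817071 to 190825871), chromosome 20 (28204871 to 28224871) and chromosome 21 (9728931 to 9741431). Their members were between 40 and 140 bp wide, and none of these windows held a peak of another list. A DMSO peak lay 0.44 kb from the edge of the chromosome 20 window, and an untreated peak 23.4 kb from it. For the chromosome 21 window the nearest Nutlin-3 and untreated peaks were 425 and 400 kb away, and for the chromosome 4 window 54.8 and 273 kb. The first window of 2 members was on chromosome 1 from 142120291 to 142125331, 594 kb from a Nutlin-3 peak.

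**Figure D4:**
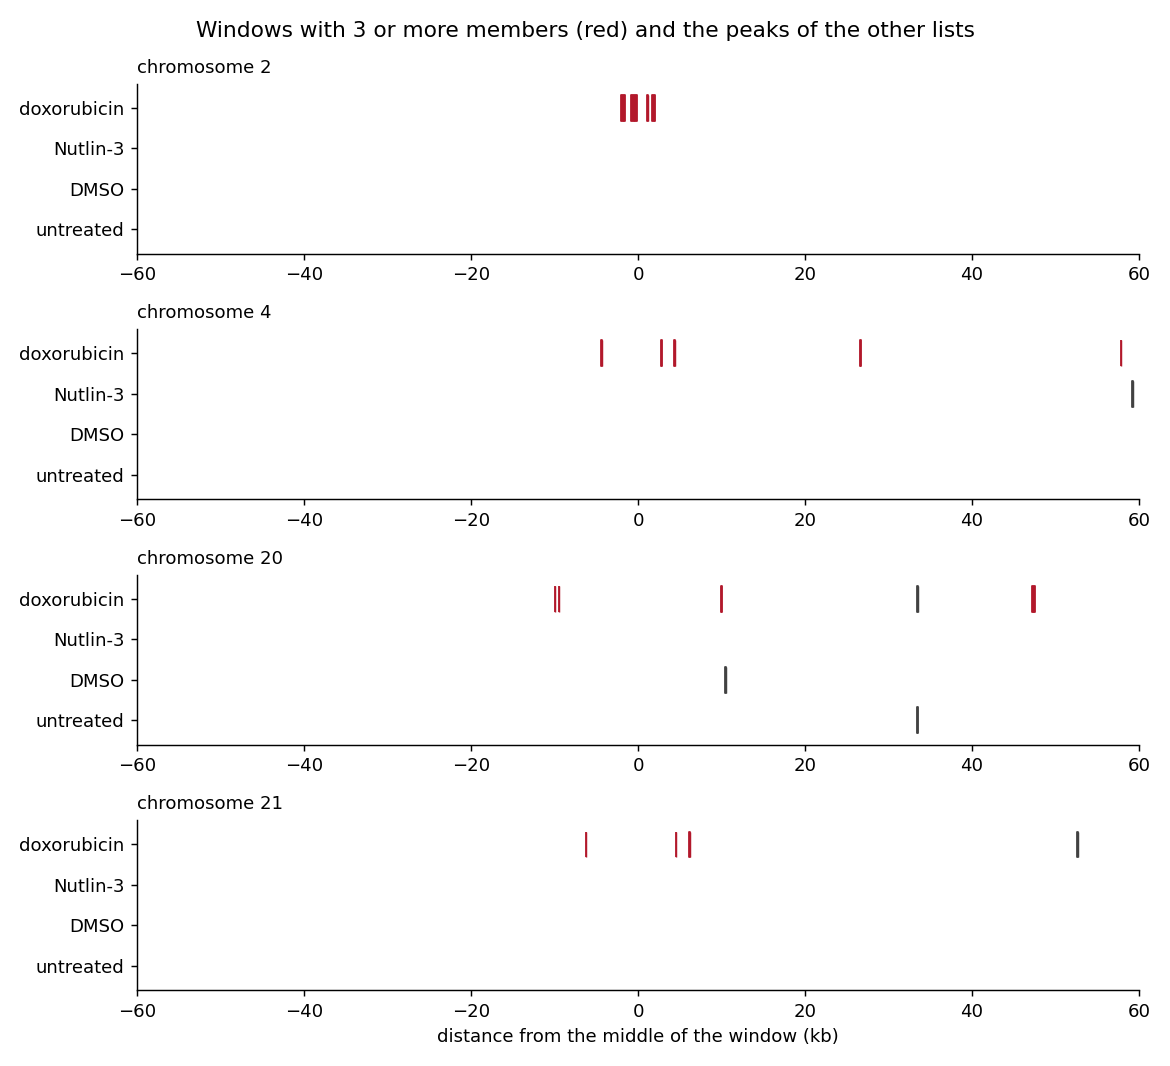
Peaks of the 4 lists around the 4 windows with 3 or more members, by distance in kb from the middle of the window; red marks are members, dark marks all other peaks, each drawn at least 1 line wide. On chromosome 2 the 4 members have no peak of any other list within 60 kb, while on chromosome 20 a DMSO and an untreated peak stand nearby.

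At the limit of the dense runs, the members were few. There were 5 runs of 4 doxorubicin peaks off chromosomes M and Y, and they held 7 members. The 4 of chromosome 2 were joined by 2 on chromosome 16 (run from 33772351 to 33781591) and 1 on chromosome 10 (run from 135350171 to 135373311). The run on chromosome 5 from 134289071 to 134291411 held no member but 4 untreated peaks. That on chromosome 17 (58147891 to 58163531) also held none, with 4 Nutlin-3 and 2 DMSO peaks. The 8 runs of 5 doxorubicin peaks just beyond the limit held 12 doxorubicin-only regions, of which 5 were on chromosome 3 from 75801011 to 75838251. With dense runs set aside, most members, 311, had no other doxorubicin peak within 20 kb, and 38 had one within 1000 bp. In 22 of those 38 the doxorubicin neighbour was shared with another list, and in 16 it was not.

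The members farthest from Nutlin-3 lay at 3 places. The first, on chromosome 11 from 51437031 to 51437231 (200 bp), was 3.64 Mb from a Nutlin-3 peak, 10.3 kb from an untreated peak and bounded the peak-free interval there. The next 3 stood near the start of chromosome X, from 318411 to 318471, 342751 to 342791 and 343091 to 343251. They were 2879, 2854 and 2854 kb from a Nutlin-3 peak, over 3 Mb from a DMSO peak and over 61 Mb from an untreated peak. The fifth, on chromosome 9 from 66210831 to 66210891, was 1692 kb from a Nutlin-3 peak and 12.9 kb from an untreated peak.

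By chromosome, the share of dispersed doxorubicin regions that were members ran from 8.96% (4.71 to 15.1) on chromosome 3 to 26.2% (13.9 to 42.0) on chromosome 21, with a median of 14.8%. Chromosomes 20, 16 and X followed chromosome 21 with 23.9%, 23.9% and 23.6%. The intervals of chromosomes 16 and 20 lay above that of chromosome 3, and every other pair among these 4 and the remaining chromosomes overlapped. Together these 4, chosen after their values were seen, had 67 members among 277 regions (24.2%), against 14.4% on the other chromosomes. With the flanks of the longest peak-free interval left out they had 49 of 249 (19.7%), against 14.2% for all chromosomes, these 4 included. Chromosome 20 had the highest number per Mb between its first and last listed peaks, the peak-free interval left out, with 0.365 members, and chromosome 3 the lowest, with 0.0617.

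**Figure D5:**
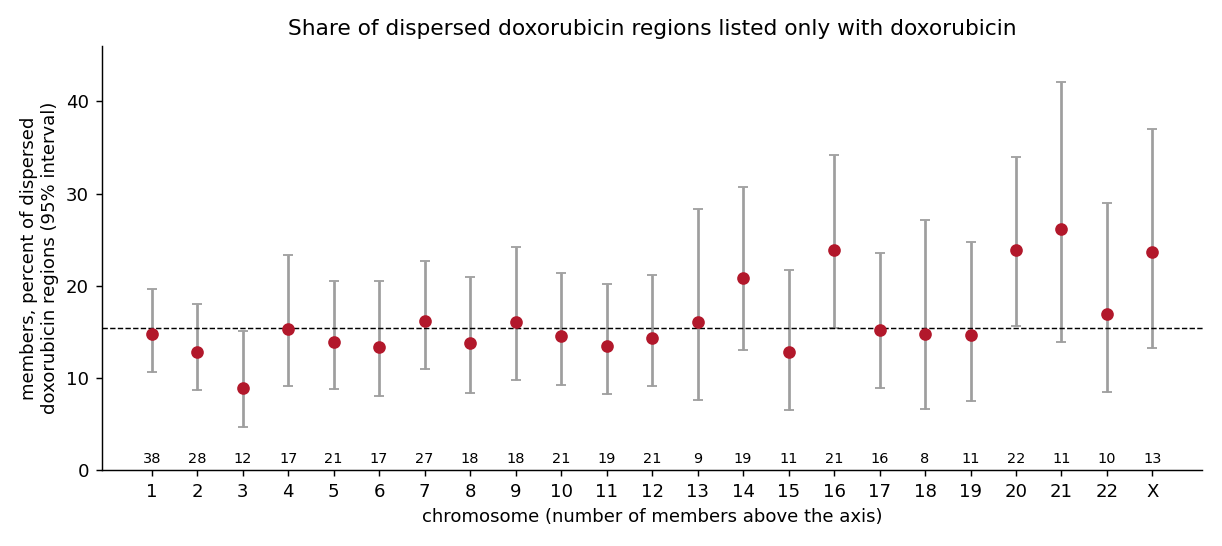
Members as a percent of the dispersed doxorubicin regions of each chromosome, with exact 95% binomial intervals; the dashed line is the 15.4% of all chromosomes and the numbers above the axis count members. Most chromosomes lie close to the line, chromosome 3 lies lowest at 8.96% and chromosome 21 highest at 26.2%.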

How the data were processed

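The authors deposited 1 peak list per ChIP library, with 3 columns (chromosome, start, end) and no score or read count; no lists of the inputs were used here. The submitters' processing notes name hg18, CASAVA and Bowtie 0.12.2; for the peak caller, its threshold and the use of the inputs, nothing is given in the sources used here. All widths were multiples of 20 bp. Whether starts count from 0 or 1 is not stated. Lists were merged and measured with Python 3.11.15 (numpy 2.4.6, scipy 1.17.1), and the code was tested on simulated data. Distances run from edge to edge, and intervals are exact 95% binomial (Clopper-Pearson; order statistics for medians). Genes, motifs and sequences were not analysed here. Regions are named by a fixed rule: the 10 widest, the 5 nearest to and 5 farthest from Nutlin-3 peaks, the 5 fullest windows, the 3 nearest to the middle of a peak-free interval, and the runs of 4 peaks. Members and measures were chosen with earlier results of these data known. With 1 library per condition, no test between conditions was made.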

Additional observations from a re-analysis of the deposited data

How the results depend on the processing

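No paired analysis was possible because each condition had 1 library. Of 126 values under 14 alternatives, 79 stayed within the interval (counts within 1.5 times) and 47 moved, 23 up and 24 down. Leaving out members beside another list or near untreated dense runs was added after the data were seen; all others were planned. The number of members was 246 with peaks up to 500 bp apart joined, 622 with no dense runs removed, 1230 without the Nutlin-3 list, 1051 against the widest Nutlin-3 peaks (as many as the doxorubicin list holds), 229 without doxorubicin peaks of 40 bp and 247 without members beside another list. The share within 1000 bp of a Nutlin-3 peak was 53.6% when only overlapping peaks were joined, 2.03% with 500 bp joining, 27.7% with dense runs kept, 43.7% without the DMSO list, 79.4% without the Nutlin-3 list, 5.04% against the widest Nutlin-3 peaks, 31.9% without 40 bp peaks and, by construction, 0% without members beside another list. The share within 1000 bp of a DMSO peak was 20.4% when only overlapping peaks were joined, 0% with 500 bp joining, 7.40% with dense runs kept, 19.9% without the DMSO list and 0% without members beside another list. For an untreated peak the share was 0% with 500 bp joining, 6.27% with dense runs kept, 10.2% without the untreated list and 0% without members beside another list.

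The median distance to a Nutlin-3 peak was 180 bp when only overlapping peaks were joined, 71240 bp with 500 bp joining, 43170 bp with dense runs kept, 9200 bp without the DMSO list, 0 bp without the Nutlin-3 list, 240140 bp against its widest peaks and 74200 bp without members beside another list. The median width moved only without 40 bp peaks, to 80 bp. Peaks of 40 bp made up 41.2% with dense runs kept, 40.2% without the Nutlin-3 list, 40.9% against its widest peaks and, by construction, 0% without 40 bp peaks. Another member stood within 20 kb of 15.1% with dense run gaps of at most 10 kb, 6.70% with gaps of at most 50 kb, 6.23% with runs of 3 or more removed, 40.7% with dense runs kept, 15.1% without the untreated list, 14.8% without 40 bp peaks and 14.6% without members beside another list. The share in the flanks (2 Mb) of the peak-free interval was 18.3% with 500 bp joining, 34.9% with dense runs kept, 5.93% without the Nutlin-3 list, 4.47% against its widest peaks and 19.0% without members beside another list. Only for the setting of the widest peaks were the intervals located anew. Also fixed by construction are each value of 0% without members beside another list, and the higher shares near the DMSO, untreated or Nutlin-3 list once that list no longer excludes members. Joining over 500 bp likewise removes members with near neighbours. The dense run rule removes doxorubicin peaks with close neighbours, so the share with another member within 20 kb depends directly on its settings. For the remaining moves the cause was not tested.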
